A study of Mus musculus with 48 samples.

Results

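The effect of a hindlimb cast worn for 3 weeks was examined in the tibial metaphysis of male 129S1/SvImJ mice, by comparing the cast left limb with the uncast right limb of the same animal. The 6 libraries of this comparison were chosen by their labels and came from mice 2, 3 and 6, out of 48 libraries in all. The immobilized group was the left tibia of 19-week-old males that had worn a cast on that hindlimb for 3 weeks, whereas the control group was the right tibia of those mice, which carried no cast. 129S1/SvImJ is an inbred laboratory strain, and no transgene or drug is named for either group. Casts were on left limbs in all animals, which means that cast and side cannot be told apart, and no animal without a cast was analysed here. The study set the same pair of limbs against each other in 7 further strains, and 22 mice with both limbs usable entered the fit.

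The metaphysis is the flared end of the bone below the growth plate, where spongy bone is laid down and removed. Osteoblasts build the collagen I matrix and mineralize it, osteoclasts dissolve it, and osteocytes inside the mineral sense load and release sclerostin, a Wnt inhibitor that restrains osteoblasts. Unloading a limb is known to thin this bone and to shrink the muscles around it. The dissected piece also holds marrow, growth plate, periosteum and attached muscle. In such bulk RNA, fewer cells of a type and less RNA per cell cannot be told apart.

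All 6 libraries held messages that define the labelled tissue. Col1a1, the main chain of collagen I, had 8439, 11794 and 9937 CPM in the immobilized limbs of mice 2, 3 and 6, against 2205, 2111 and 3825 CPM in their control limbs, where CPM is the usual read count scaled to library size, here with TMM factors. Ibsp, the bone sialoprotein of mineralizing osteoblasts, had 739.8, 1265 and 879.7 CPM in the immobilized limbs of mice 2, 3 and 6, against 739.7, 670.2 and 539 CPM in their control limbs. Blood and muscle messages were present as well: the beta-globin Hbb-bs had 23596, 79250.3 and 25288 CPM in the immobilized limbs of mice 2, 3 and 6, against 31395, 12503 and 40384 CPM in their control limbs, and the muscle actin Acta1 had 3129, 159 and 255 CPM in the immobilized limbs of mice 2, 3 and 6, against 2513, 3548 and 1313 CPM in their control limbs. Hbb-bs has a near-identical neighbour, so its counts are uncertain. Total counts lay between 6564161 and 8157840 in these 6 libraries, and 16882 of 32544 gene rows had enough counts to be tested. Some 267 of the 16882 had no count in any 129S1/SvImJ library.

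No gene passed a false discovery rate of 0.05 in the paired edgeR quasi-likelihood test of immobilized against control 129S1/SvImJ limbs, 0% of 16882 genes, and the lowest adjusted p was 0.622. At an unadjusted p under 0.05 there were 767 genes, 4.54% of those tested, of which 463 were higher and 304 lower in immobilized limbs. DESeq2, run on the same libraries and the same pairing, called 5 genes, or 0.0296%, with 4 higher (0.0237%) and 1 lower (0.00592%) in immobilized limbs. It put 762 genes, 4.51%, under an unadjusted p of 0.05. Across the whole table, which the scaling centres, the median log2 change was 0.01 and the median standard error (SE) was 0.26. The 95% interval of the change lay within 1 log2 unit either way for 10422 genes, 61.7% of those tested. For those genes a change beyond 2-fold lies outside the interval, and for the others it does not.

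The 3 mice did not share 1 pattern across the transcriptome. The log2 difference between the limbs had the same sign in all 3 mice for 24.3% of genes, 14.5% higher and 9.76% lower in the immobilized limb. Across all tested genes, Pearson's r between the limb differences of 2 mice was -0.12 for mice 2 and 3, 0.07 for mice 2 and 6, and 0.25 for mice 3 and 6. Mouse 3 had the widest differences, with 15.9% of genes at least 1 log2 unit apart between its limbs, against 8.52% in mouse 2 and 9.42% in mouse 6. In the 6 other strains with 3 mice, the share of genes with 1 sign in all mice lay between 14.9% in NZO/HlLtJ and 52.2% in CAST/EiJ. All 3 immobilized libraries lay above all 3 control libraries for 820 genes, 4.86% of those tested, and below them for 541, or 3.2%.

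The 5 genes that DESeq2 called are named here because of that call, after their values were seen. Of these, 4 were higher in immobilized limbs. C1qtnf6, a secreted C1q/TNF-related protein at chr15:78523346-78531416 in GRCm38, had 91.9, 176 and 65.7 CPM in the immobilized limbs of mice 2, 3 and 6, against 33.9, 32.1 and 23.0 CPM in their control limbs. Its log2 change was 1.80 ± 0.35 (SE), with an unadjusted p of 8.3e-05 and an adjusted p of 0.622 in edgeR, against an adjusted p of 0.00152 in DESeq2. Every immobilized library lay above every control library. Spon2, at chr5:33198184-33218455, encodes the secreted matrix protein spondin 2, and had 6.98, 15.7 and 3.99 CPM in the immobilized limbs of mice 2, 3 and 6, against 2.41, 2.44 and 0.908 CPM in their control limbs. Its log2 change was 2.11 ± 0.39, with an unadjusted edgeR p of 4.1e-05, the smallest of the 5, and a DESeq2 adjusted p of 0.0111. Fndc1, a fibronectin type III domain protein at chr17:7738569-7827302, had 74.6, 363 and 34.7 CPM in the immobilized limbs of mice 2, 3 and 6, against 15.5, 20.4 and 6.36 CPM in their control limbs, again with no overlap between the limbs. Mouse 3 gave the widest gap for each of these 3 genes, and Fndc1 was 2.98 ± 0.72 higher on the log2 scale (adjusted p 0.941 in edgeR and 0.0101 in DESeq2).

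Stfa2, a stefin that inhibits cysteine proteases, was the other higher gene, with 3.49, 20.8 and 25.5 CPM in the immobilized limbs of mice 2, 3 and 6, against 2.17, 0.719 and 4.99 CPM in their control limbs. The groups overlapped, with the smallest difference in mouse 2, and the log2 change was 2.50 ± 0.55 (adjusted p 0.941 in edgeR and 0.0288 in DESeq2). Its neighbour BC100530 at chr16:36359382-36367748 had 12.4, 73.7 and 99.8 CPM in the immobilized limbs of mice 2, 3 and 6, against 8.66, 3.02 and 17.1 CPM in their control limbs. Stfa2 and BC100530 belong to a cluster of near-copies on chromosome 16, so the split of counts between them is uncertain.

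The DESeq2 call in the lower direction was Myl2, the regulatory light chain of slow skeletal and heart muscle myosin, at chr5:122100951-122113472. It had 6.42, 4.504 and 0.911 CPM in the immobilized limbs of mice 2, 3 and 6, against 132, 200.2 and 36.5 CPM in their control limbs. The limbs were far apart in each animal, and the log2 change was -4.99 ± 0.99, with an unadjusted p of 1.1e-04 and an adjusted p of 0.622 in edgeR, against an adjusted p of 0.00133 in DESeq2. With the mean log2 CPM of 22 skeletal muscle genes, of which Myl2 is 1, as a covariate, the edgeR change was -3.95.

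**Figure D1:**
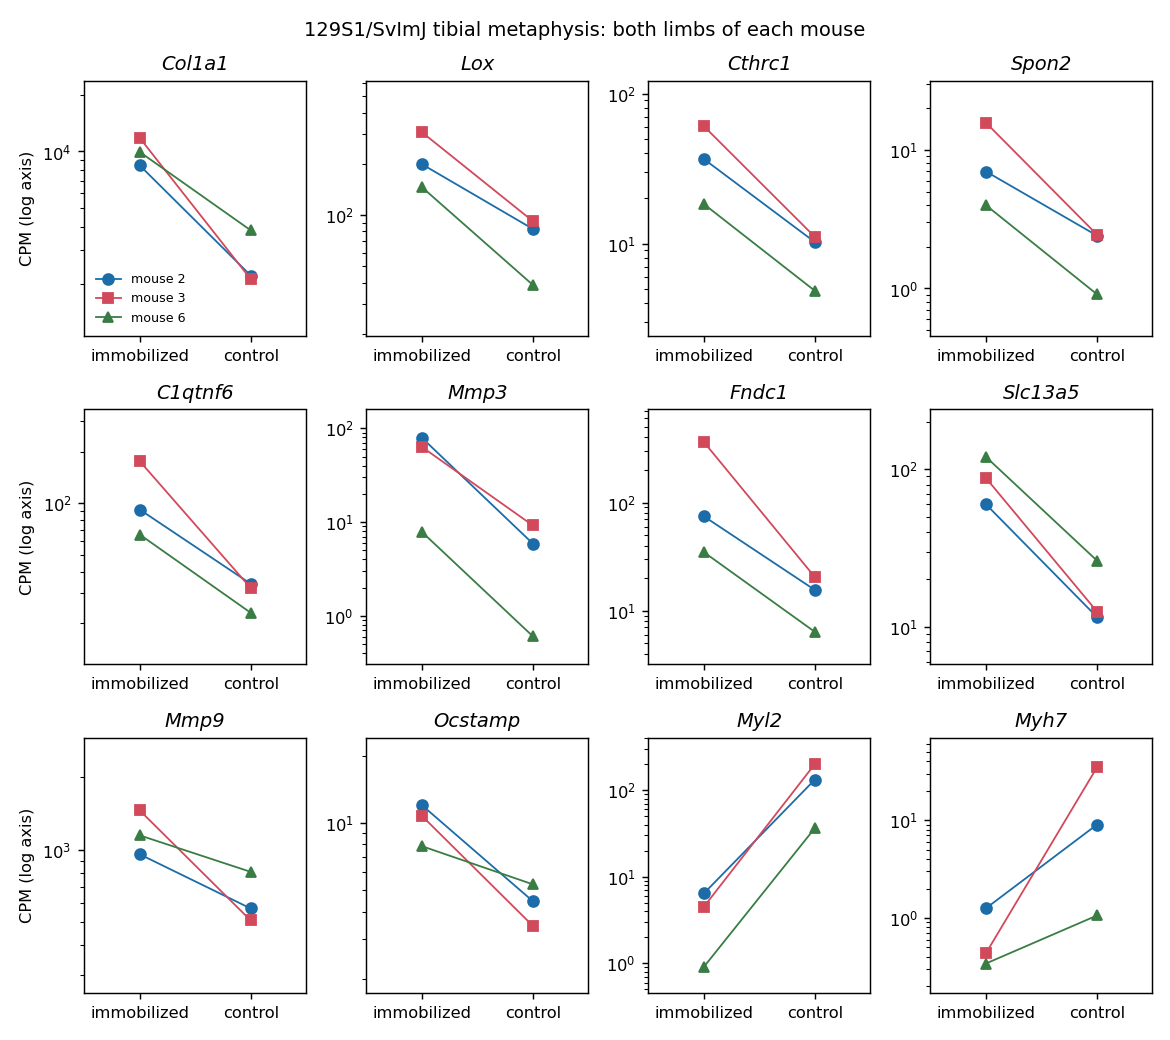
CPM of 12 genes (log axis) in the immobilized and control tibia of 129S1/SvImJ mice 2, 3 and 6, with a line joining the limbs of each animal. Lines for Col1a1, Lox, Cthrc1, Spon2, C1qtnf6, Mmp3, Fndc1, Slc13a5, Mmp9 and Ocstamp all run downward to the control limb, and lines for Myl2 and Myh7 run upward.

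Beyond these calls, genes were ranked by size among those with an unadjusted p under 0.01, the same sign in 3 mice and a mean of at least 5 CPM in the higher limb. There were 133 such genes, 99 higher and 34 lower in immobilized limbs, and none passed the false discovery rate in edgeR. With or without the other conditions, 162 of the 16882 genes tested had an unadjusted p under 0.01. That is about as many as this threshold would give with no difference between the limbs, so a place in the ranking is not a call. The rule also favours genes whose limbs do not overlap. The top 12 in the higher direction were led by C1qtnf3, another C1q/TNF-related protein, which is made by cartilage and fibrous cells. It had 23.9, 85.3 and 9.57 CPM in the immobilized limbs of mice 2, 3 and 6, against 3.37, 1.73 and 1.06 CPM in their control limbs, a log2 difference of 3.89 ± 1.11. Crabp2, which carries retinoic acid inside cells, had 11.6, 19.5 and 1.48 CPM in the immobilized limbs of mice 2, 3 and 6, against 1.56, 1.15 and 0 CPM in their control limbs, and the third control library held no count of it. Mmp3, a matrix metalloproteinase that cuts proteoglycans and other matrix proteins, had 79.3, 63.4 and 7.86 CPM in the immobilized limbs of mice 2, 3 and 6, against 5.897, 9.204 and 0.605 CPM in their control limbs. In C1qtnf3 the limbs did not overlap, whereas in Crabp2 and Mmp3 the immobilized limb of mouse 6 lay inside the control range although it exceeded its own control.

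Moxd1, a monooxygenase-like protein, differed by 3.04 ± 1.02 on the log2 scale. Megf6, a protein with EGF-like repeats, differed by 2.49 ± 0.74, and Fbn2, the microfibril protein fibrillin 2, by 2.34 ± 0.64. Anxa8, a membrane-binding annexin, had 78.5, 151 and 31.2 CPM in the immobilized limbs of mice 2, 3 and 6, against 17.3, 35.7 and 4.69 CPM in their control limbs, a difference of 2.29 ± 0.71. Slc13a5, the citrate transporter of the plasma membrane, which is strongly expressed by osteoblasts, had 59.9, 87.9 and 119.7 CPM in the immobilized limbs of mice 2, 3 and 6, against 11.6, 12.5 and 26.3 CPM in their control limbs. All 3 immobilized libraries exceeded all 3 controls for Slc13a5, and its difference of 2.45 ± 0.70 was nearly equal in the 3 mice, at 2.35, 2.79 and 2.17.

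Collagen I messages were more abundant in the immobilized limb of each of the 3 mice. For Col1a1 the values given above amount to a log2 change of 1.93 ± 0.56, with an unadjusted p of 0.003 and an adjusted p of 0.9996, and the difference was 1.94, 2.48 and 1.38 in mice 2, 3 and 6. Its partner chain Col1a2 at chr6:4504814-4541544 had 9550.0, 15443 and 10396 CPM in the immobilized limbs of mice 2, 3 and 6, against 3167, 3221 and 4352 CPM in their control limbs, a log2 change of 1.70 ± 0.56. The limbs did not overlap for either chain. The 250 bases before the RefSeq start of Col1a2, chr6:4505368-4505617 on the plus strand of GRCm38.p6, are shown because this is the most abundant matrix gene with a widely separated pair of limbs and an entry in the sequence table. Capitals mark CCAAT boxes, the letters CCAAT on either strand, and E-boxes, the letters CANNTG, which read alike on both strands.

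Col1a2: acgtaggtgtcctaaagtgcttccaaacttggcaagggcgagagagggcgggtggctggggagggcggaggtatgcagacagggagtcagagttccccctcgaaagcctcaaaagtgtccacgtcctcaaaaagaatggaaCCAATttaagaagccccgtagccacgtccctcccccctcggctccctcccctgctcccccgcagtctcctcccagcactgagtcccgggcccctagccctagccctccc

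The window held 1 CCAAT box, from base -109 to base -105 counted from the start, and no E-box. A CCAAT box was present in 33.8% of the 32851 RefSeq promoter windows of that length, and an E-box in 66.2%. A match describes the letters only.

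Of 21 genes listed for osteoblasts and bone matrix, 18 were higher and 3 lower in immobilized 129S1/SvImJ limbs, with a median log2 change of 0.51 against 0.01 over all genes. None passed the false discovery rate, and 5 were higher at an unadjusted p under 0.05, where 2.74% of all genes were. In 13 of 21 the immobilized limb was higher in all 3 mice, where 14.5% of all genes were. Sparc, the collagen-binding osteonectin, had 4422, 6758 and 3288 CPM in the immobilized limbs of mice 2, 3 and 6, against 1793, 1921 and 1566 CPM in their control limbs. Cthrc1, a secreted protein of matrix-forming cells that carries a collagen triple helix repeat, had 36.6, 60.6 and 18.3 CPM in the immobilized limbs of mice 2, 3 and 6, against 10.2, 11.1 and 4.84 CPM in their control limbs. Phospho1, a phosphatase that starts mineral deposition, had 113, 111 and 79.4 CPM in the immobilized limbs of mice 2, 3 and 6, against 45.7, 62.3 and 51.5 CPM in their control limbs. Log2 changes were 1.40 ± 0.47 for Sparc, 2.08 ± 0.59 for Cthrc1 and 0.92 ± 0.37 for Phospho1, with no overlap between limbs in any of them.

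Other osteoblast genes differed less. Alpl, the alkaline phosphatase that frees phosphate for mineral, differed by 0.75 ± 0.38 and overlapped between the limbs. Bglap, which encodes osteocalcin and has a near-identical copy that makes its counts uncertain, differed by 0.70 ± 0.57. Ibsp was 0.54 ± 0.62 higher, with no difference in mouse 2. The transcription factors that set osteoblast fate differed least: Sp7 by 0.45 ± 0.39 and Runx2 by -0.0027 ± 0.25. In Sp7 the limb difference was 0.49, -0.035 and 0.90 in mice 2, 3 and 6, so mouse 3 was level where the collagen genes were furthest apart.

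Enzymes that fold, modify and crosslink collagen stood higher together with the collagens. Of 16 such genes, 15 were higher, where 52.1% of all genes were, and 14 were higher in all 3 mice, where 14.5% of all genes were. Their median log2 change was 0.72, and 6 were higher at an unadjusted p under 0.05, where 2.74% of all genes were. Lox, which crosslinks collagen fibres, had 199, 308 and 146 CPM in the immobilized limbs of mice 2, 3 and 6, against 82.8, 92.0 and 38.7 CPM in their control limbs. Fkbp10, a procollagen chaperone whose loss causes brittle bones, had 181, 197 and 133 CPM in the immobilized limbs of mice 2, 3 and 6, against 75.3, 108 and 48.1 CPM in their control limbs. P3h1, a prolyl 3-hydroxylase, had 63.1, 63.8 and 46.2 CPM in the immobilized limbs of mice 2, 3 and 6, against 28.8, 32.5 and 21.9 CPM in their control limbs. The limbs did not overlap for these 3, and their log2 changes were 1.64 ± 0.56, 1.20 ± 0.39 and 1.06 ± 0.34. Creb3l1, a transcription factor that drives collagen secretion in osteoblasts, differed by 1.29 ± 0.42, and the procollagen C-proteinase Bmp1 by 0.83 ± 0.33. Its enhancer Pcolce differed by 0.74 ± 0.34, with overlap between limbs. Plod3, a lysyl hydroxylase, was the 1 member that was not higher, at -0.18 ± 0.17.

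All 16 genes listed for fibrous tissue and tendon were higher in immobilized limbs, 15 of them in all 3 mice, against 52.1% and 14.5% of all genes. Their median log2 change was 1.23, and 8 were past an unadjusted p of 0.05, where 2.74% of all genes were higher. The median difference was 0.93, 1.45 and 1.20 in mice 2, 3 and 6. Col5a1, a chain of the collagen that starts fibril assembly, had 365, 699 and 334 CPM in the immobilized limbs of mice 2, 3 and 6, against 196, 189 and 153 CPM in their control limbs. Col5a2 differed by 1.63 ± 0.50, and the pericellular collagen chains Col6a1 and Col6a2 by 1.16 ± 0.35 and 1.34 ± 0.41. Limbs were fully separated for these 4 collagen chains. Col3a1, the collagen of loose fibrous tissue, had 2621, 4983 and 817 CPM in the immobilized limbs of mice 2, 3 and 6, against 1018, 1136 and 353 CPM in their control limbs, and mouse 6 had the least of it in both limbs. Tendon genes were less even: Tnmd, a membrane protein of tendon cells, differed by 1.51 ± 0.80, and Scx, the tendon transcription factor, by 0.77 ± 0.52 with -0.17, 1.26 and 1.20 in mice 2, 3 and 6.

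Of 18 genes listed for growth plate cartilage 16 were tested, and all 16 were higher, 10 of them in all 3 mice, against 52.1% and 14.5% of all genes. Their median log2 change was 1.11, but 1 was past an unadjusted p of 0.05, where 2.74% of all genes were higher. Levels varied widely between animals: Acan, the aggrecan core protein, had 43.3, 168 and 23.8 CPM in the immobilized limbs of mice 2, 3 and 6, against 13.6, 61.7 and 4.84 CPM in their control limbs. Col10a1, made by hypertrophic chondrocytes, had 10.1, 34.7 and 2.85 CPM in the immobilized limbs of mice 2, 3 and 6, against 2.05, 48.6 and 1.06 CPM in their control limbs, with the highest level in the control limb of mouse 3. Col2a1, the collagen of cartilage, differed by 0.77 ± 1.001 and Acan by 1.76 ± 1.13, with overlap between the limbs in both. Col11a1, a fibril collagen of cartilage and bone, was the gene past that threshold, with 363, 603 and 549 CPM in the immobilized limbs of mice 2, 3 and 6, against 117, 112 and 151 CPM in their control limbs. Its limbs did not overlap, and the difference was 1.97 ± 0.66. The share of growth plate in each piece and its part in the collagen values were not tested.

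Osteocyte genes did not stand with the matrix genes. Of 12 listed, 9 were lower and 3 higher in immobilized limbs, with a median of -0.19, and none was past an unadjusted p of 0.05. The median difference was -0.044, -0.88 and 0.24 in mice 2, 3 and 6, and the list's median change was 0.11 without mouse 3 and 0.053 with the muscle covariate described below. Sost, which encodes sclerostin, had 241, 215 and 115 CPM in the immobilized limbs of mice 2, 3 and 6, against 371, 698 and 93.4 CPM in their control limbs. Dmp1, a phosphoprotein that controls mineral and phosphate, had 444, 252 and 433 CPM in the immobilized limbs of mice 2, 3 and 6, against 534, 718 and 394 CPM in their control limbs, and Mepe, an inhibitor of mineralization, had 367, 401 and 204 CPM in the immobilized limbs of mice 2, 3 and 6, against 724, 1141 and 241 CPM in their control limbs. Sost differed by -0.68 ± 0.72, Dmp1 by -0.54 ± 0.48 and Mepe by -0.91 ± 0.64. The limbs overlapped for all 3 genes, and Mepe alone of them was lower in each of the 3 mice. Phex, a phosphate-regulating endopeptidase, differed by 0.28 ± 0.49, with mouse 6 higher and the other mice level or lower.

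Osteoclast genes were higher for 14 of 16 listed, 8 in all 3 mice, against 52.1% and 14.5% of all genes. Their median log2 change was 0.38, and 2 were past an unadjusted p of 0.05, where 2.74% of all genes were higher. Mmp9, the gelatinase of osteoclasts, had 956, 1455 and 1146 CPM in the immobilized limbs of mice 2, 3 and 6, against 569, 508 and 808 CPM in their control limbs. Ocstamp, a membrane protein needed for osteoclast fusion, had 12.01, 10.8 and 7.86 CPM in the immobilized limbs of mice 2, 3 and 6, against 4.45, 3.45 and 5.298 CPM in their control limbs. These were the 2 past the threshold, with log2 changes of 0.92 ± 0.30 and 1.21 ± 0.40, and neither overlapped between the limbs. Mmp9 is also made by neutrophils, whose genes were higher in the immobilized limb of mouse 3 and lower in mice 2 and 6, and the part of that in the Mmp9 difference was not tested. Ctsk, the cathepsin that digests bone collagen, had 1282, 1332 and 807 CPM in the immobilized limbs of mice 2, 3 and 6, against 705, 479 and 401 CPM in their control limbs, and Acp5, the tartrate-resistant acid phosphatase, had 902, 1061 and 721 CPM in the immobilized limbs of mice 2, 3 and 6, against 660.4, 502 and 559.7 CPM in their control limbs. Both were separated between limbs, with differences of 1.12 ± 0.54 and 0.63 ± 0.45. Dcstamp, the other fusion protein, differed by 0.30 ± 0.44, and the integrin chain Itgb3, shared with platelets, by -0.27 ± 0.28.

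Signals that regulate osteoclast formation were described as a list of their own, with no test of the list. Tnfsf11, which encodes RANKL, the osteoclast-inducing ligand, had 8.52, 10.03 and 8.2005 CPM in the immobilized limbs of mice 2, 3 and 6, against 8.54, 12.4 and 2.42 CPM in their control limbs. Tnfrsf11b, which encodes its decoy osteoprotegerin, had 35.7, 33.3 and 13.9 CPM in the immobilized limbs of mice 2, 3 and 6, against 25.0, 40.8 and 12.1 CPM in their control limbs. The limbs overlapped for both, with differences of 0.39 ± 0.39 and 0.14 ± 0.65. Of 10 listed regulators, 9 were higher, with a median of 0.34, and 1, the inflammatory cytokine Tnf, was past an unadjusted p of 0.05 at 1.21 ± 0.56. Among Wnt targets and inhibitors 10 of the 11 tested were higher, with a median of 0.26, which was -0.019 without mouse 6. Axin2, a Wnt feedback gene, differed by 0.28 ± 0.48 and Notum, a secreted Wnt-inactivating enzyme, by 0.64 ± 0.35, while Dkk3 was past that p at 1.22 ± 0.56. The 12 targets of BMP, TGF-beta and hedgehog signals had a median of 0.074, and 2 were past an unadjusted p of 0.05: Id2, an inhibitor of differentiation, at 0.54 ± 0.16, and the TGF-beta-induced matrix protein Tgfbi at 0.72 ± 0.25. Over all genes, 52.1% were higher, and 2.74% were higher at an unadjusted p under 0.05.

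**Figure D2:**
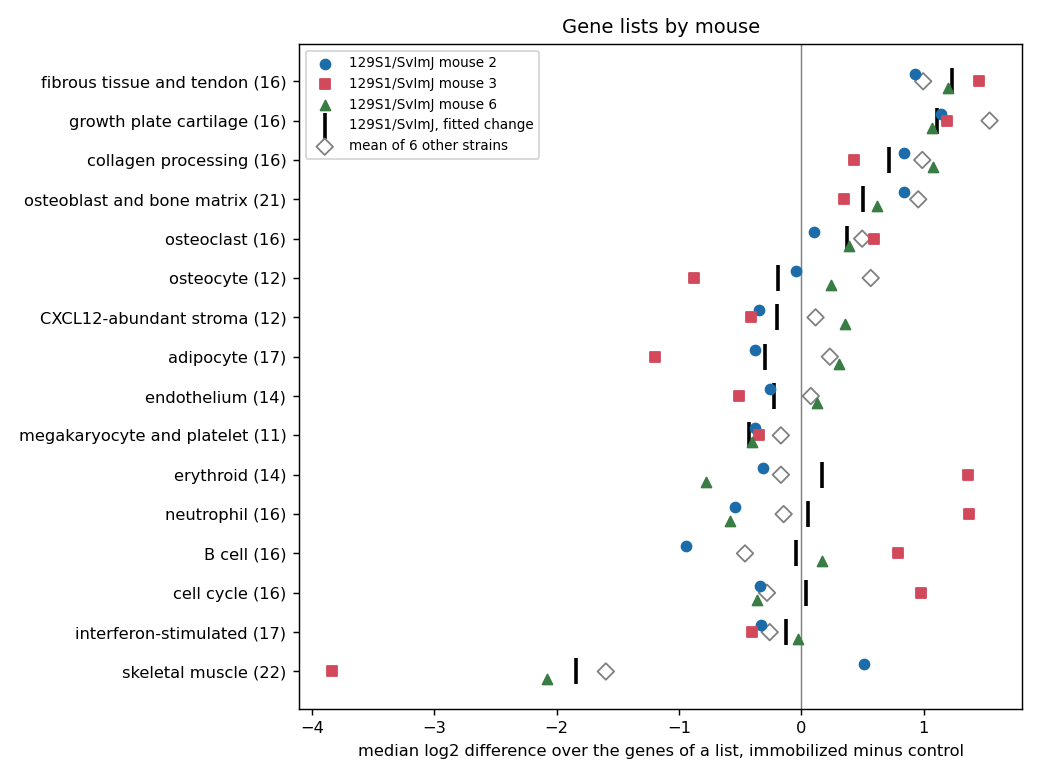
Median log2 difference, immobilized minus control, over the genes of 16 lists in 129S1/SvImJ mice 2, 3 and 6 (coloured points, log2 CPM), the median fitted change (black bar) and the median change in 6 other strains (open diamond); numbers in brackets count the genes tested. The 4 lists of collagen, cartilage, fibrous and osteoblast genes lie above 0 in all 3 mice, and the erythroid, neutrophil and cell cycle lists lie above 0 in mouse 3 and below 0 in mice 2 and 6.

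Skeletal muscle genes were lower in fitted change for 22 of 22 listed, with a median log2 change of -1.84 and 5 at an unadjusted p under 0.05, where 1.8% of all genes were. The amount of muscle in the samples differed widely. The mean log2 CPM of the 22 genes was 8.21, 5.25 and 5.06 in the immobilized limbs of mice 2, 3 and 6, against 8.25, 9.14 and 7.28 in their control limbs. Mouse 2 thus carried about as much muscle message in one limb as in the other, while mice 3 and 6 had far less in the immobilized limb. Muscle left on the dissected bone and muscle lost in the cast cannot be told apart here. With that mean as a covariate, the edgeR fit again called 0 genes and the Col1a1 change was 2.08. The list medians were then 1.01 for osteoblast, 0.84 for osteoclast, 1.12 for collagen processing and 1.69 for growth plate genes.

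Slow-fibre and fast-fibre genes differed in how the mice behaved. This split was chosen after the values were seen. The 6 slow-fibre genes were lower in the immobilized limb of all 3 mice, with a median difference of -1.67, -4.65 and -1.22 in mice 2, 3 and 6. The 11 fast-fibre genes had 0.57, -3.77 and -1.98, so mouse 2 was higher in its immobilized limb. Myh7, the slow myosin heavy chain at chr14:54970684-54994626, had 1.26, 0.436 and 0.342 CPM in the immobilized limbs of mice 2, 3 and 6, against 9.03, 34.8 and 1.06 CPM in their control limbs, a log2 change of -3.92 ± 1.14. Tnni1, the slow troponin I at chr1:135779434-135810989, had 2.51, 0.436 and 0.114 CPM in the immobilized limbs of mice 2, 3 and 6, against 7.82, 21.6 and 1.36 CPM in their control limbs, a change of -3.26 ± 0.96. Tnnt1, the slow troponin T, had 12.7, 9.88 and 10.3 CPM in the immobilized limbs of mice 2, 3 and 6, against 26.8, 38.8 and 19.5 CPM in their control limbs, and did not overlap between limbs. Myl3, a light chain of slow and heart muscle, differed by -2.63 ± 0.98, and Tnnc1, the troponin C of slow muscle and heart, by -1.78 ± 0.96.

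The fast myosin Myh4 showed the other pattern, with 2159.9, 219.5 and 176 CPM in the immobilized limbs of mice 2, 3 and 6, against 1387, 2992 and 1702 CPM in their control limbs. Ckm, the muscle creatine kinase, had 2068, 144 and 178 CPM in the immobilized limbs of mice 2, 3 and 6, against 1310.3, 2107 and 833 CPM in their control limbs. Both were higher in the immobilized limb of mouse 2, and their fitted changes of -2.33 ± 1.71 and -1.89 ± 1.39 had wide errors, as had that of Acta1 at -2.21 ± 1.58. Among genes tied to muscle wasting, the ubiquitin ligases Fbxo32 and Trim63 differed by -0.60 ± 0.37 and -1.21 ± 0.97. Mstn, the growth inhibitor myostatin, had 5.17, 1.45 and 0.683 CPM in the immobilized limbs of mice 2, 3 and 6, against 9.75, 10.8 and 3.78 CPM in their control limbs, lower in each animal, with a change of -1.99 ± 0.97.

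The 250 bases before the first RefSeq start of Myh7, chr14:54994627-54994876 on the minus strand, and of Tnni1, chr1:135799171-135799420 on the plus strand (GRCm38.p6), are shown because these 2 slow-fibre genes had large fitted changes and were lower in the immobilized limb of each mouse. In mouse 6 both limbs held few counts of either gene. Capitals mark E-boxes and CCAAT boxes as above.
Myh7: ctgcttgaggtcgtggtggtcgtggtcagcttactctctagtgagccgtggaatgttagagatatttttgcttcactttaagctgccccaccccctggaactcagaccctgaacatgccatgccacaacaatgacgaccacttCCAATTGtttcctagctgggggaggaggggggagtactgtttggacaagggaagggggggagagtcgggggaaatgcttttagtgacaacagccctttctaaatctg
Tnni1: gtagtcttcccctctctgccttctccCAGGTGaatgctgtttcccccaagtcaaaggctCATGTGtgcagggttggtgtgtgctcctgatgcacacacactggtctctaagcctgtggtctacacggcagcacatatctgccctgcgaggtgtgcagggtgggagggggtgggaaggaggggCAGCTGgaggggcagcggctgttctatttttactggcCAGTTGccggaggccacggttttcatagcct
The Myh7 window held 1 E-box, CAATTG from base -106 to -101, which overlaps a CCAAT box. The Tnni1 window held 4 E-boxes and no CCAAT box. Each gene has a second listed start, whose window is not shown. It held 2 E-boxes and 1 CCAAT box for Myh7, and 2 E-boxes and no CCAAT box for Tnni1.

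**Figure D3:**
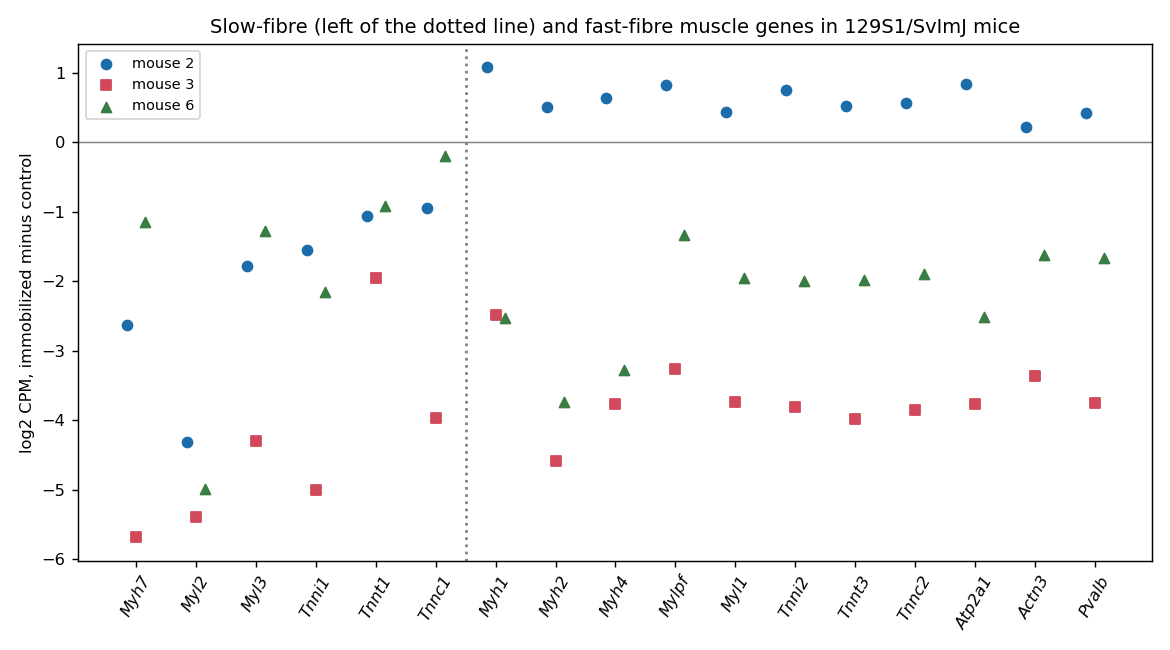
Log2 CPM difference, immobilized minus control, of 6 slow-fibre genes (left of the dotted line) and 11 fast-fibre genes in 129S1/SvImJ mice 2, 3 and 6. Every slow-fibre point lies below 0, whereas fast-fibre points lie above 0 in mouse 2 and below 0 in mice 3 and 6.

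Marrow cell lists had medians near 0 that hid opposite animals. Erythroid genes had a median log2 change of 0.17, made of -0.31, 1.36 and -0.78 in mice 2, 3 and 6, and neutrophil genes 0.055, made of -0.54, 1.37 and -0.58. Hbb-bs differed by 0.43 ± 0.91 and Alas2, the first enzyme of heme synthesis in red cells, by 0.18 ± 0.86. S100a8, a neutrophil calprotectin chain, differed by 0.19 ± 0.54 and the granule protein Ltf by -0.10 ± 0.54. Cell cycle genes followed them, with -0.34, 0.98 and -0.36, and Mki67, a marker of dividing cells, differed by 0.013 ± 0.37. In each of these lists 0 genes were higher or lower in all 3 mice, where 14.5% and 9.76% of all genes were. In mice 2, 3 and 6 the osteoblast list had medians of 0.84, 0.35 and 0.62, and the collagen processing list 0.84, 0.43 and 1.08. The fibrous tissue list had 0.93, 1.45 and 1.20. The part of marrow content in any single result was not tested.

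Lymphoid genes also differed in direction between the mice. B cell genes had a median difference of -0.95, 0.79 and 0.17 in mice 2, 3 and 6: Rag1, the recombinase of B cell precursors, differed by -0.51 ± 0.56 and Pax5, their lineage factor, by 0.018 ± 0.43. Among 12 plasma cell genes, 9 were lower. Jchain, the antibody joining chain, differed by -0.50 ± 0.56, and Irf4, a plasma cell factor, by -0.65 ± 0.35 with no overlap between limbs. Fkbp11, a secretory chaperone on that list which osteoblasts also make, went the other way with 17.3, 14.8 and 13.9 CPM in the immobilized limbs of mice 2, 3 and 6, against 6.498, 6.76 and 4.84 CPM in their control limbs, a change of 1.35 ± 0.36. T and NK cell genes had a median of 0.017, and Cd3e, a T cell receptor chain, differed by 0.29 ± 0.39. Of 15 macrophage genes 11 were higher, with a median of 0.097. The macrophage receptor Vsig4 differed by 0.48 ± 0.48, with 2.13, -0.82 and 0.057 in mice 2, 3 and 6. Schwann cell and nerve genes had a median of 0.092.

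Platelet genes were the marrow list on which the 3 mice were closest. All 11 megakaryocyte and platelet genes were lower in fitted change, 9 of them in all 3 mice, where 9.76% of all genes were, and the median difference was -0.38, -0.35 and -0.40 in mice 2, 3 and 6. The sizes were small: the median change was -0.43, none of the 11 was past an unadjusted p of 0.05, and Pf4, the platelet chemokine, had 248, 141 and 359 CPM in the immobilized limbs of mice 2, 3 and 6, against 303, 169 and 364 CPM in their control limbs.

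The list medians of marrow stroma, adipocyte and endothelial genes were lower in the immobilized limb of mice 2 and 3 and higher in that of mouse 6. Adipocyte genes were lower in fitted change for 15 of 17, with -0.37, -1.20 and 0.30 in mice 2, 3 and 6, and their median change was -0.30, against 0.18 without mouse 3. Adipoq, the fat cell hormone adiponectin, had 109.6, 106 and 114 CPM in the immobilized limbs of mice 2, 3 and 6, against 168, 243 and 92.3 CPM in their control limbs, a change of -0.51 ± 0.38, and the lipid droplet coat gene Plin1 differed by -0.26 ± 0.72. Cxcl12, the chemokine that holds blood stem cells in marrow, had 3044, 2796 and 2719.6 CPM in the immobilized limbs of mice 2, 3 and 6, against 5028, 4873 and 2437 CPM in their control limbs, a change of -0.46 ± 0.25. Lepr, the leptin receptor of the same stromal cells, differed by -0.35 ± 0.28. Ebf3, a transcription factor of those cells, had 47.7, 42.4 and 50.2 CPM in the immobilized limbs of mice 2, 3 and 6, against 84.0, 81.4 and 48.9 CPM in their control limbs and was past an unadjusted p of 0.05 at -0.57 ± 0.18, while the platelet-derived growth factor receptor Pdgfra differed by 0.69 ± 0.29.

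Of 14 endothelial genes 13 were lower, with a median of -0.22 and none past an unadjusted p of 0.05. Cdh5, the vessel cadherin, differed by -0.29 ± 0.28, and Esam, an endothelial adhesion molecule, by -0.40 ± 0.22 with no overlap between limbs. Both arterial genes in the ranked list of lower genes were separated between limbs, where 3.2% of all genes lay below in this way. The ranking itself favours such genes. Gja5, the artery connexin, had 12.3, 8.72 and 10.1 CPM in the immobilized limbs of mice 2, 3 and 6, against 27.7, 32.1 and 16.6 CPM in their control limbs, a change of -1.25 ± 0.41, and Sema3g, a semaphorin of arteries, had 25.7, 24.4 and 21.2 CPM in the immobilized limbs of mice 2, 3 and 6, against 53.7, 69.9 and 26.9 CPM in their control limbs, a change of -0.98 ± 0.31.

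The remaining genes ranked lower were of mixed kinds. Tigd4, a transposase-derived gene, had 5.58, 2.62 and 1.25 CPM in the immobilized limbs of mice 2, 3 and 6, against 16.005, 24.4 and 6.81 CPM in their control limbs, a change of -2.35 ± 0.72. Asah2, a ceramidase, differed by -0.68 ± 0.22, and the kinase Mast4 by -0.66 ± 0.20. Ralgapa2, a subunit of a RAL GTPase-activating complex, had 30.02, 31.1 and 36.4 CPM in the immobilized limbs of mice 2, 3 and 6, against 52.7, 49.9 and 49.9 CPM in their control limbs, a change of -0.65 ± 0.18. Amd2, a copy of the polyamine enzyme gene Amd1 whose counts are therefore uncertain, had 12.7, 9.88 and 10.9 CPM in the immobilized limbs of mice 2, 3 and 6, against 20.6, 23.2 and 21.9 CPM in their control limbs, a change of -0.97 ± 0.28. None of these 5 overlapped between limbs, where 3.2% of all genes lay below in this way, and none passed the false discovery rate. The ranking used the same libraries and favours separated limbs, so the lack of overlap adds no support.

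Oas1a, an antiviral oligoadenylate synthetase, was also among the ranked lower genes, with 1.82, 1.45 and 3.303 CPM in the immobilized limbs of mice 2, 3 and 6, against 4.09, 6.04 and 6.51 CPM in their control limbs. Of 17 interferon-stimulated genes, 12 were lower and 5 higher, where 47.9% of all genes were lower, with a median of -0.12. At an unadjusted p under 0.05, 4 were lower, where 1.8% of all genes were. Isg15, a ubiquitin-like antiviral protein, had 3.21, 4.36 and 3.76 CPM in the immobilized limbs of mice 2, 3 and 6, against 5.78, 5.896 and 7.11 CPM in their control limbs, a change of -0.73 ± 0.29 with no overlap between limbs. Oasl2, a relative of the oligoadenylate synthetases, differed by -0.77 ± 0.29 and Oas2 by -0.60 ± 0.38.

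The 129S1/SvImJ values were set beside the mean limb effect of the 6 other strains with 3 pairs each, WSB/EiJ, PWK/PhJ, CAST/EiJ, NZO/HlLtJ, NOD/ShiLtJ and C57BL/6J, which share no library with it. In that mean, edgeR called 2397 genes, 14.2% of those tested, 1628 higher (9.64%) and 769 lower (4.56%) in immobilized limbs. Of the 1628, 1438 were higher in 129S1/SvImJ, 88.3% against 52.1% of all genes, and 782 were higher in all 3 mice. Of the 769, 661 were lower in 129S1/SvImJ, 86.0% against 47.9% of all genes, and 244 were lower in all 3 mice, 31.7% against 9.76%. In 17 of the 1628 and 11 of the 769 all 3 mice went the opposite way, where 9.76% of all genes were lower and 14.5% higher in all 3. The median log2 change of the 1628 genes was 0.28 in 129S1/SvImJ and 0.50 in the 6 strains, and that of the 769 was -0.17 in 129S1/SvImJ and -0.28 in the 6 strains. Choosing genes by their call in the 6 strains raises the size seen there, so these medians do not show a smaller effect in 129S1/SvImJ.

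**Figure D4:**
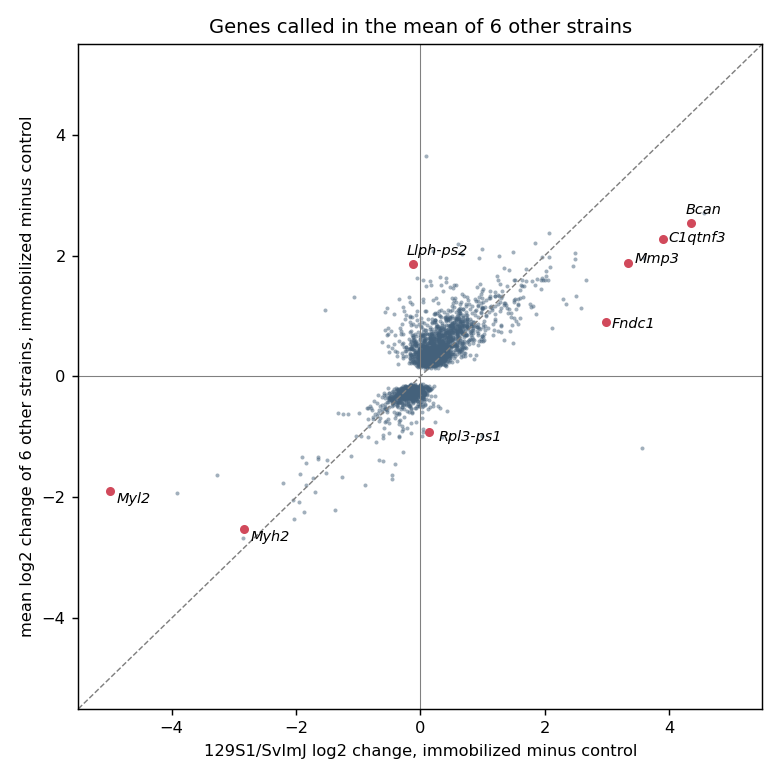
Log2 change, immobilized minus control, in 129S1/SvImJ (horizontal axis) against the mean of 6 other strains (vertical axis) for the 2397 genes called in that mean; the dashed line marks equal change. Most points lie in the upper right and lower left parts, with 1438 of 1628 and 661 of 769 on the same side of 0 in both.

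The 6 largest called changes of the 6 strains in each direction were set beside their 129S1/SvImJ values. Bcan, the proteoglycan brevican, had 3.07, 1.74 and 1.48 CPM in the immobilized limbs of mice 2, 3 and 6, against 0.1203, 0.144 and 0 CPM in their control limbs, a fitted change of 4.36 ± 1.08 that rests on few counts, beside 2.54 in the 6 strains. Panx3, a pannexin channel of osteoblasts and cartilage, had 13.0, 25.0 and 18.3 CPM in the immobilized limbs of mice 2, 3 and 6, against 3.49, 7.62 and 4.69 CPM in their control limbs, a change of 1.85 ± 0.93 beside 2.20. Limbs were separated in both. C1qtnf3, Mmp3 and BC100530 were among the 6 largest rises there too, at 2.28, 1.88 and 2.05, and Car12, a carbonic anhydrase, differed by 0.94 ± 1.08 in 129S1/SvImJ beside 1.95. The 6 largest falls of the 6 strains were muscle genes, which were higher in mouse 2 and lower in mice 3 and 6. Ckmt2, the mitochondrial creatine kinase, differed by -2.86 ± 1.55 beside -2.68, the fast myosin Myh2 by -2.83 ± 1.41 beside -2.52, and Smtnl1, a smoothelin-like muscle protein, by -2.03 ± 1.10 beside -2.36. Apobec2, a muscle member of the deaminase family, differed by -1.87 ± 1.31 beside -2.24, Dhrs7c, of the muscle calcium store, by -1.38 ± 1.08 beside -2.22, and Ampd1, the muscle AMP deaminase, by -1.96 ± 1.25 beside -2.07.

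The difference itself, the 129S1/SvImJ effect minus the mean effect of the 6 strains, passed the false discovery rate in edgeR for 0% of 16882 genes, and the lowest adjusted p was 1. At an unadjusted p under 0.05 there were 337 genes, 2% of those tested, 135 with a positive (0.8%) and 202 with a negative difference (1.2%), and DESeq2 called 0 with 288, or 1.71%, under that p. For Col1a1 the difference was 0.34 ± 0.59, with a 95% interval from -0.90 to 1.59, and for Myl2 it was -3.10 ± 1.06, from -5.35 to -0.85. Fndc1 differed by 2.08 ± 0.76, with an interval from 0.47 to 3.69. Myl2 and Fndc1 were named for their DESeq2 call in 129S1/SvImJ, a choice that raises the size seen in that strain. Their intervals therefore do not show a difference between strains. For Dmp1 the difference was -1.11 ± 0.52, from -2.21 to -0.01, and it did not pass the false discovery rate. The limb change of Dmp1 was -0.54 in 129S1/SvImJ, -0.23 in PWK/PhJ, -0.65 in WSB/EiJ and between 0.48 and 1.73 in the other 4 strains of that mean. Dmp1 is 1 of many panel genes and its interval is not adjusted for that, so it does not show a difference between strains either.

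Genes at the smallest p in that difference were ranked in each direction with a mean of at least 5 CPM. The positive side held Rpl3-ps1, a ribosomal protein pseudogene whose counts are uncertain, at 1.06 ± 0.27, where the limb change was 0.14 in 129S1/SvImJ, -5.23 in C57BL/6J and between -0.17 and 0.016 in the other 5 strains of that mean. The pseudogene Got2-ps1, likewise uncertain, had 0.1396, 0.145 and 0.114 CPM in the immobilized limbs of mice 2, 3 and 6, against 0, 0 and 0 CPM in their control limbs, too few counts for a fold change. Spon2 stood at 1.31 ± 0.42 and Myl4, an atrial and embryonic myosin light chain, at 1.98 ± 0.65. Myl4 had 6.702, 8.72 and 2.85 CPM in the immobilized limbs of mice 2, 3 and 6, against 4.81, 3.02 and 1.36 CPM in their control limbs, higher in each 129S1/SvImJ mouse, while its mean in the 6 strains was -0.98. Its limb change was also positive in C57BL/6J, at 0.43, and lay between -1.86 and -0.68 in the other 5 strains of that mean. The transcription factor Elk4 differed by 0.33 ± 0.11, Nt5dc2, a nucleotidase-domain protein, by 0.66 ± 0.23, the unannotated 1700048O20Rik by 0.79 ± 0.27, and Rabggtb, a subunit of an enzyme that attaches lipids to Rab proteins, by 0.39 ± 0.14. Nt5dc2 had 57.5, 80.5 and 45.6 CPM in the immobilized limbs of mice 2, 3 and 6, against 30.1, 32.8 and 35.3 CPM in their control limbs, with no overlap between limbs. NOD/ShiLtJ shared 2 of these changes. For Nt5dc2 it was 0.87 in 129S1/SvImJ, 0.86 in NOD/ShiLtJ and between -0.18 and 0.28 in the other 5 strains of that mean. For 1700048O20Rik it was 0.65 in 129S1/SvImJ, 0.65 in NOD/ShiLtJ and between -1.07 and 0.33 in the other 5.

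On the negative side the smallest p belonged to Llph-ps2, another pseudogene with uncertain counts, at -1.98 ± 0.38. Its limb change was -0.12 in 129S1/SvImJ, 6.24 in CAST/EiJ, 4.48 in PWK/PhJ and between -0.11 and 0.62 in the other 4 strains of that mean. It was followed by Ctif, a translation initiation factor, at -0.68 ± 0.16. Gm4070 stood at -1.61 ± 0.40, with a limb change of -0.34 in 129S1/SvImJ, 8.87 in NZO/HlLtJ and between -0.65 and 0.25 in the other 5 strains of that mean. Gm14410 stood at -1.19 ± 0.35. Amd2 stood at -1.07 ± 0.32, Akap7, an anchor of protein kinase A, at -0.56 ± 0.17, the small membrane protein Smagp at -0.83 ± 0.26 and Thsd4, a microfibril-associated matrix protein, at -0.77 ± 0.25. Akap7 had 14.4, 16.4 and 15.4 CPM in the immobilized limbs of mice 2, 3 and 6, against 18.9, 20.4 and 19.7 CPM in their control limbs, lower in each animal, against a mean of 0.20 in the 6 strains. Its limb change was -0.042 in NZO/HlLtJ, -0.033 in WSB/EiJ and between 0.18 and 0.60 in the other 4 strains of that mean. For Amd2 it was -0.97 in 129S1/SvImJ, -0.69 in CAST/EiJ, -0.44 in PWK/PhJ and between -0.024 and 0.97 in the other 4. None of the differences from the 6 strains passed the correction over all genes.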

How the data were processed

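Libraries were made from total RNA of tibial metaphysis with a poly(A) kit that keeps strand, per the labels. The authors deposited unnormalized counts, 1 whole number per gene and library; featureCounts, DESeq2 and the mm10 build are listed in the submitters' processing notes. No source used here names the aligner, annotation, strand setting or versions, so antisense and overlapping genes stay uncertain. Gene coordinates are from GENCODE M21 (GRCm38) by symbol, found for 31374 of 32544 rows; 27 rows had gene names turned into dates. Promoters are from RefSeq.

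Counts were fitted with edgeR 4.0.16 (TMM scaling, filterByExpr over 16 groups, robust quasi-likelihood test, Benjamini-Hochberg adjustment) in R 4.3.3. The model had a term per mouse and a limb effect per strain over 44 libraries of 22 mice, which share 1 estimate of spread. Residual spread was thus taken from all strains. A/J mice 2 and 5 were left out because their control libraries held 2335 and 50 counts; other libraries held between 5253408 and 14744056. The limb changes carry their SE, and per-mouse differences are in log2 CPM with a prior count of 2. DESeq2 1.42.0 was an alternative; others are given in the closing section.

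The series' design states that both limbs came from the same mouse, which gives the pairing. Within 129S1/SvImJ the correlation of the limbs' deviations from their group means was 0.006, 0.028 and 0.548 for mice 2, 3 and 6. Nothing else says how the 3 mice were housed or batched. The p-values measure how the limb difference varied between mice of the same strain, pooled over the strains in the fit. They do not measure the spread of the 3 129S1/SvImJ pairs alone, and the 1 usable A/J pair adds nothing to that spread. Chi-square per degree of freedom between pairs of the 6 libraries was at least 26.3, so none was a repeat of another.

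The members and gene lists were chosen with earlier results of these data known. Named genes are any past the false discovery rate; the 12 largest changes each way at an unadjusted p under 0.01 with 1 sign in 3 mice and 5 CPM in the higher limb; a fixed panel; the 8 smallest p each way in the difference from 6 strains; and the 6 largest called changes each way in those strains. Others are members of the lists past an unadjusted p of 0.05 or with roles given in the text. Some genes that these rules name are not reported here. List medians have no test. The fit was run on simulated counts with known changes, which had the same spread setting for every gene and no differences between mice. That run does not show how many changes would be found in these data.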

Additional observations from a re-analysis of the deposited data

Results flagged for a closer look

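The median limb difference over the 11 megakaryocyte and platelet genes was -0.40, -0.38 and -0.35 on the log2 scale in the 129S1/SvImJ mice and 0.36, 0.88 and 1.32 in the WSB/EiJ mice. The list was singled out because every animal of one strain lay below 0 and every animal of the other above it. The median over mice in 129S1/SvImJ minus that in WSB/EiJ was -1.26, and this difference was not tested. Every mouse also lay below 0 in CAST/EiJ, at -1.73, -1.68 and -1.21, and in NOD/ShiLtJ, at -1.09, -0.98 and -0.38, whereas C57BL/6J, NZO/HlLtJ and PWK/PhJ had mice on both sides of 0. WSB/EiJ was the strain with every mouse above 0.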

How the results depend on the processing

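The count of genes called in 129S1/SvImJ was 0 with RLE scaling, with no filter, with all 48 libraries, with the skeletal muscle covariate, in the 6 libraries alone and with any 1 mouse left out (0 to 0), and 5 with DESeq2. With no replicate block the edgeR count was 0 as well; DESeq2 was run with the pairing only. The difference from the 6 strains had 0 calls in every alternative run (0 to 0 with 1 mouse left out). The mean of the 6 strains kept within 1.5 times its 2397 calls, with 1686 without the block and 3450 with the muscle covariate, but fell to 643 with A/J as a seventh strain, of which 1 pair is usable.

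Of 1446 single-gene values under alternatives, 1396 kept their sign and side of the threshold, 5 passed the threshold under DESeq2 and 45 changed sign, none of them past the threshold. With the muscle covariate, which is built from muscle genes, the sign turned for Runx2 0.089, Acta1 0.47, Myh4 0.66, Ckm 0.49, Trim63 0.73, Hbb-bs -0.021, Alas2 -0.35, S100a8 -0.18, Pax5 -0.34, Mki67 -0.37, Egr1 0.0034, Dbp 0.13, Ckmt2 0.24, Myh2 0.086, Smtnl1 0.41, Apobec2 0.66, Dhrs7c 1.13 and Ampd1 0.81. Without the block it turned for Col10a1 -0.13 and Mki67 -0.050. With DESeq2 it turned for Pax5 -0.0059 and Mki67 -0.0051. With RLE scaling it turned for Pax5 -0.0017 and Mki67 -0.0051. With no filter it turned for Pax5 -0.0081 and Mki67 -0.012. Leaving out 1 mouse turned the sign for the following genes, with the range over the 3 fits: Runx2 -0.24 to 0.30, Phex -0.22 to 0.64, Tnfsf11 -0.16 to 0.79, Tnfrsf11b -0.063 to 0.36, Axin2 -0.096 to 0.58, Plin1 -1.04 to 0.41, Hbb-bs -0.54 to 1.13, Alas2 -0.67 to 0.84, S100a8 -0.58 to 0.80, Ltf -0.81 to 0.42, Rag1 -1.69 to 0.26, Pax5 -0.40 to 0.73, Cd3e -0.034 to 0.56, Vsig4 -0.55 to 1.52, Mki67 -0.48 to 0.35, Per1 -0.41 to 0.15 and Llph-ps2 -0.25 to 0.013. These are genes with small or animal-dependent differences, and the causes were not tested. Of 360 list medians under alternatives, 23 moved by more than 1 SD over the mice, 12 of them with the muscle covariate, and 45 changed sign in 22 lists. With that covariate the median was 0.63 for skeletal muscle, whose genes build it, 0.61 for osteoclast regulators, 0.36 for BMP, TGF-beta and hedgehog targets, 0.44 for mechanoresponsive genes and -0.74 for platelet genes.

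With 3 mice, the 95% interval was known to lie within 1 log2 unit either way for only 10422 of 16882 genes. That width is not a limit of detection. In edgeR even the log2 changes of -4.99 for Myl2 and 2.98 for Fndc1 had adjusted p of 0.622 and 0.941. Depth limits low genes such as Bcan, Crabp2 and Moxd1, whose control libraries hold few or no counts. It also limits Myh7 and Tnni1, whose immobilized libraries hold few counts. Residual spread was shared with other strains, and side of the body was never varied.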

Other observations

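Lists of pathways and stress responses, and the medians of the remaining lists, are given here for 129S1/SvImJ limbs. For comparison, 52.1% of all genes were higher. At an unadjusted edgeR p under 0.05, higher genes made up 2.74% of all genes and lower genes 1.8%. Cholesterol synthesis genes were higher for 15 of 18, with a median log2 change of 0.15 and 3 at an unadjusted edgeR p under 0.05. Msmo1, a sterol oxidase, had 29.9, 35.6 and 32.0 CPM in immobilized limbs against 27.3, 20.997 and 28.0 CPM in control limbs in mice 2, 3 and 6, with no overlap, and Cyp51, the lanosterol demethylase, differed by 0.68 ± 0.25. Hmgcs1, an early enzyme of the pathway, differed by 0.16 ± 0.16. In the IGF axis 9 of 12 genes were higher, with a median of 0.31 that was 0.029 without mouse 2, and Igf1, the growth factor itself, had 139, 161 and 65.1 CPM in immobilized limbs against 90.6, 113 and 34.2 CPM in control limbs. Its log2 change was 0.68 ± 0.26.

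Heat shock genes had a median of -0.070, with 1 of 14 lower at an unadjusted p under 0.05: Hsph1, a large chaperone, at -0.59 ± 0.20 beside -0.86 in the 6 other strains. The endoplasmic reticulum chaperone Hspa5 differed by 0.14 ± 0.16. Glucocorticoid-responsive genes had a median of -0.089, and 2 of 12 were lower past that p, Fkbp5 at -0.50 ± 0.17 and Zbtb16 at -0.80 ± 0.30. Immediate early genes had a median of 0.072: Fos differed by 0.16 ± 0.48, Egr1 by -0.29 ± 0.38 and Klf4 by 0.59 ± 0.24. Of 15 clock genes 7 were higher and 8 lower, and 1 was past that p, Npas2, a partner of the clock protein Bmal1, with 3.91, 6.39 and 2.39 CPM in immobilized limbs against 2.05, 1.73 and 2.27 CPM in control limbs, no overlap and a change of 0.97 ± 0.41. Dbp differed by -0.39 ± 0.42 and Per1 by -0.20 ± 0.28. The nuclear respiratory chain and mitochondrially encoded lists had medians of -0.14 and -0.19, and in both mouse 2 was higher in its immobilized limb and mice 3 and 6 lower, as for fast-fibre genes. Mechanoresponsive and YAP targets had a median of 0.080, hypoxia and glycolysis genes -0.21 (3 of 16 lower past that p, Aldoa at -1.17 ± 0.48, Pfkfb3 at -0.50 ± 0.22 and Hk2 at -0.84 ± 0.33), unfolded protein response genes -0.040, disused muscle genes -0.024, circadian clock genes -0.12, stroma genes -0.20 and plasma cell genes -0.36. The hypoxia and glycolysis list had median differences of 0.13, -0.83 and -0.25 in mice 2, 3 and 6, the same signs as the fast-fibre genes. Its median change was 0.046 with the muscle covariate, and the part of muscle in it was not tested.

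The inflammation genes Cxcl2 and Ccl7 were chosen after their values were seen, and in Cxcl2 a single library set the value. Cxcl2, a neutrophil-attracting chemokine, had no count in any immobilized library and was at 20.3 CPM in the control limb of mouse 6, against 0.12 and 0 CPM in the control limbs of mice 2 and 3. Ccl7, a monocyte-attracting chemokine, had 5.03, 2.03 and 0.797 CPM in immobilized limbs against 0.842, 0.431 and 0 CPM in control limbs, higher in each animal, with a log2 change of 2.66 ± 0.89. The inflammation list had a median of 0.11.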
